A study of Mus musculus with 6 samples.

Results

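The genes described are the heat shock proteins, J-domain proteins and chaperonin subunits, measured in mouse liver cells sorted as regulatory T cells. They were chosen as every gene of the table whose symbol starts with Hsp, Dnaj or Cct2 to Cct8. Hspa5, Hsp90b1, Dnajb9, Dnajb11 and Dnajc3, which work inside the endoplasmic reticulum, were left out. This gave 69 of the 15442 genes, of which 23 were HSP, 38 DNAJ and 8 CCT genes. The working name of the group, cytosolic and mitochondrial chaperones, holds for most of them only. The rule also kept genes whose products sit in the endoplasmic reticulum or its membrane, among them Hspa13, Dnajb12, Dnajb14, Dnajc1, Dnajc10, Dnajc16, Dnajc18 and Dnajc25. It also kept Hspg2, which encodes a proteoglycan of the extracellular matrix, and Hspb11, a protein of intraflagellar transport.

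Chaperones bind other proteins while these fold, assemble, cross membranes or unfold under stress. HSP70 proteins hold short unfolded stretches in a cycle of ATP binding and hydrolysis, J-domain proteins (the DNAJ genes) bring them their clients and trigger the hydrolysis, and HSP110 proteins reload them with ATP. HSP90 acts later, on signalling proteins such as kinases and steroid receptors, while the ring-shaped CCT complex folds actin and tubulin in the cytosol and the HSP60 and HSP10 proteins form a chamber in the mitochondrial matrix. Many of these genes are induced by heat shock factor 1, which binds inverted repeats of a short unit, the heat shock element. T cells raise several of them when they are activated and grow.

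Cells were sorted from the livers of Foxp3-GFP reporter mice by their green fluorescence, Foxp3 being the transcription factor that defines regulatory T cells. The series compares a mouse model of autoimmune hepatitis (AIH), an attack of the immune system on the liver, with control mice, and asks how regulatory T cells differ between them. There were 3 libraries labelled AIH and 3 labelled control, made by SMART-Seq2, which copies polyadenylated RNA of small inputs into full-length cDNA. All 6 came from primary liver cells of reporter mice, so the controls carried the reporter too. The way the disease was induced, the strain, the age and the number of animals or cells behind a library are not in the sources used here. Nothing in the labels ties the libraries to separate mice, and p-values then measure only the spread between these libraries, which may be technical.

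The libraries held 17780509 to 24572388 expected counts. The sort marker goes against the labels in one respect that precedes every result. Foxp3 had 4.95, 91.5 and 31.5 expected counts in AIH 1, 2 and 3 and 418, 274 and 1002 in Control 1, 2 and 3, so it was lowest where the cells were labelled AIH, and "AIH" below means the libraries labelled so. Genes of other cell types differed between the groups as well. The summed level of 11 macrophage markers was 386, 2096 and 2697 CPM (counts scaled to a common library size) in AIH 1, 2 and 3 and 6404, 3457 and 15340 in Control 1, 2 and 3. None of the 11 was at 0 in any library, the lowest value being that of Vsig4 in AIH 1, at 0.0533 CPM. The 4 T cell markers found summed to 5269, 5993 and 5377 CPM in the AIH libraries and 3229, 3022 and 1903 in the controls, a sum carried by Cd3d and Cd3g. Within that list Cd3e overlapped between the groups, and Cd4 did too, at 57.0 ± 33.2 CPM in AIH and 90.7 ± 16.2 CPM among controls (SD, n = 3 each). The sums of the 2 CD8 T cell markers and of the 4 Treg markers were also higher in every AIH library, although Cd8b1, Il2ra, Ctla4 and Ikzf2 each overlapped and Foxp3 was lower. B cell and endothelial sums were lower in every AIH library, while the sums of the NK cell, hepatocyte and immediate early lists overlapped between the groups. On the first principal component, with 32.5% of the variance, AIH 1 was at one end and Control 3 at the other. The part of these differences in the values of the chaperone genes was not tested, beyond the fits named beside the results. In bulk samples, fewer cells of a type and less RNA per cell cannot be told apart.

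Promoter sequences are shown for 4 members to make the heat shock elements visible. Hspe1 and Dnaja1 had the smallest p-values among the members, and Hspe1, Hsph1 and Dnajb6 are 3 of the 4 members whose promoters held 3 abutting units of the element. Each sequence runs 5′ to 3′ on the gene's own strand, from 250 bases before to 50 bases after a transcription start, as given by RefSeq for GRCm38.p6, and capitals mark the matched letters. The authors' notes name GRCm39, so these coordinates belong to the reference table and not to the authors' alignment. The windows are chr1:55087898-55088197 on the plus strand for Hspe1, chr5:149636266-149636565 on the minus strand for Hsph1, chr5:29735648-29735947 on the plus strand for Dnajb6 and chr4:40722218-40722517 on the plus strand for Dnaja1. Dnaja1 also has windows from 40722672 and from 40722680, at other transcription starts, and these held no match.
Hspe1: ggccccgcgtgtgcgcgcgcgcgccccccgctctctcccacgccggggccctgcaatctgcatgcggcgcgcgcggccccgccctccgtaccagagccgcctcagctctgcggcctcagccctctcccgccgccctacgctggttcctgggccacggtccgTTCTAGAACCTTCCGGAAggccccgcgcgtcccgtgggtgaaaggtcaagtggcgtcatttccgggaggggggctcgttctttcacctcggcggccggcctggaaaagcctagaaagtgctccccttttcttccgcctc
Hsph1: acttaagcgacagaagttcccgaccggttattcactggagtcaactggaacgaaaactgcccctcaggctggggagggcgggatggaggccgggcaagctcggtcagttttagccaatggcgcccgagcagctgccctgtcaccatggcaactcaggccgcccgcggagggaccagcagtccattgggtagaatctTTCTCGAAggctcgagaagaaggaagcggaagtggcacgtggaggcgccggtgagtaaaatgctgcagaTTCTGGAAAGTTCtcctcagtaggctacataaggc
Dnajb6: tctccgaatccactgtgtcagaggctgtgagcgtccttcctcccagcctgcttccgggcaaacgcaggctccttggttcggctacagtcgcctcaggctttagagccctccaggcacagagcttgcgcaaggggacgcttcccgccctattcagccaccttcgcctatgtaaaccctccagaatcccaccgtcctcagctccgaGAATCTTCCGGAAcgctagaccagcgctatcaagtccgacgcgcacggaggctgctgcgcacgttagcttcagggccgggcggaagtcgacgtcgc
Dnaja1: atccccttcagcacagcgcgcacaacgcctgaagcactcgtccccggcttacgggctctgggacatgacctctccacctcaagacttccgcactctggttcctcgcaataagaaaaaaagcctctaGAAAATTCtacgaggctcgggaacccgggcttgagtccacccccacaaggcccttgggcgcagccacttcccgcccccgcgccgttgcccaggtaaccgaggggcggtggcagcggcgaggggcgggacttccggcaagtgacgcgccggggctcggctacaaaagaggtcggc

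The element was searched as 2 abutting units facing opposite ways, the letters GAANNTTC or TTCNNGAA, each of which reads the same on both strands. It was also searched as 3 abutting units of alternating direction, which contains a pair of overlapping matches of the first kind. Of the 69 members, 56 had at least 1 promoter window in the RefSeq table. Hspa8, Hsp90aa1, Hsp90ab1, Hspa9 and Dnajc5 were among those without one, so the shares do not cover them. Of the 56, 18 (32.1%) held 2 units, against 14.4% of the genes tested and 17.0% of all genes with a window. The share was 44.4% for HSP genes (8 of 18), 19.4% for DNAJ genes (6 of 31) and 57.1% for CCT genes (4 of 7). Hspd1, Hspe1, Hsph1 and Dnajb6 held 3 units, which is 7.14% of the 56 members, against 0.554% of the genes tested. The windows of Hspe1 and Hspd1, which encode the mitochondrial HSP10 and HSP60, overlap by 285 bases on opposite strands, so both count the same letters. The windows of Dnajb1 held no match. A match is a description of the letters and no binding was measured.

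**Figure D1:**
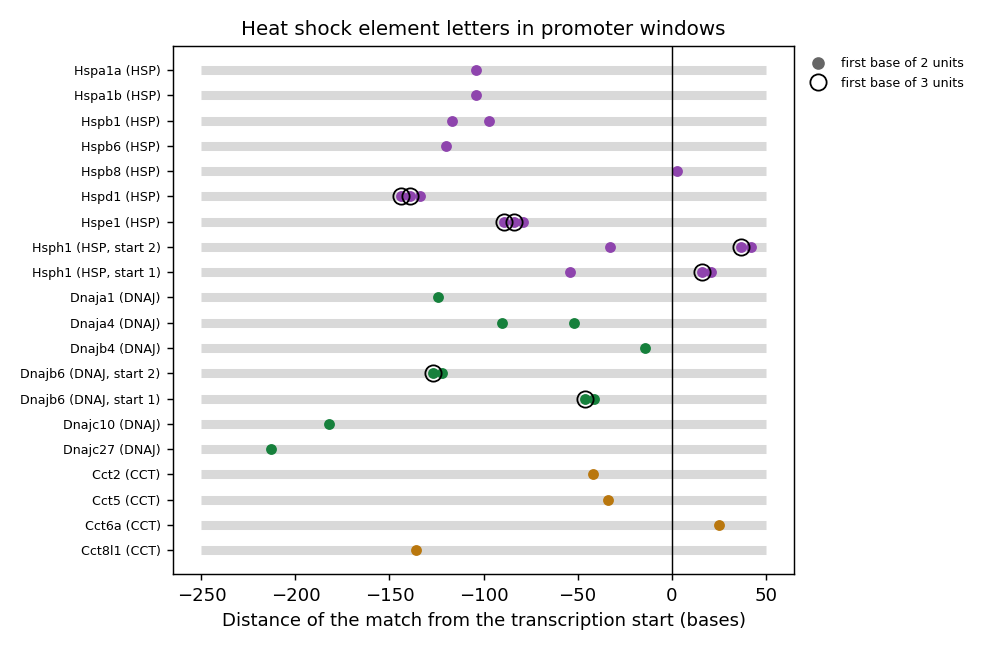
Position of matches to the heat shock element in the promoter windows of members that hold one, in bases from the transcription start (x axis), with 1 grey bar per window from 250 bases before to 50 after the start. Points mark the first base of 2 abutting units and open circles that of 3. Open circles are seen for Hspd1, Hspe1, Hsph1 and Dnajb6 only.

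Per transcript length, the family was led by few genes. Over all 6 libraries, Dnajc15, a J-domain protein of the inner mitochondrial membrane, had the highest mean level, at 604 TPM (a share of all transcripts, corrected for their length). Hspa8, the constitutive HSP70 of the cytosol, followed at 556 TPM. Hspe1 stood at 326, the HSP90 gene Hsp90aa1 at 294, Dnajc19 at 241 and the other HSP90 gene, Hsp90ab1, at 172 TPM. Hspa8, Hspe1, Hsp90aa1 and Hsp90ab1 together made up 80.3 to 85.9% of the summed HSP level of a library. Hspa1a and Hspa1b, the classical stress-induced HSP70 genes, are near-identical copies that share reads, so their split is uncertain. Their counts together came to 3, 0 and 126 in AIH 1, 2 and 3 and to 71, 1 and 647 in Control 1, 2 and 3, so they were highest in Control 3. Their mean levels were 0.957 and 1.10 TPM.

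The summed HSP level was 1659, 1651 and 1834 TPM in AIH 1, 2 and 3 and 1174, 1386 and 1898 TPM in Control 1, 2 and 3. The groups overlapped, with a mean of 1714 ± 103 TPM (SD, n = 3) in AIH and 1486 ± 372 TPM (SD, n = 3) in the controls. Control 3 was the highest of all libraries, and without it the ratio of the means went from 1.15 to 1.34. The DNAJ sum was 1836, 1833 and 1790 TPM in AIH and 1564, 1652 and 1586 TPM in the controls, so every AIH library lay above every control. Its means were 1819 ± 25.8 and 1601 ± 45.8 TPM (SD, n = 3 each). The ratio of these means was 1.14, and on summed CPM it was 1.43. On CPM long transcripts weigh more, and library sizes are also rescaled by TMM factors. These factors were 0.898, 0.984 and 0.933 in AIH and 1.01, 1.09 and 1.10 in the controls. As a plain share of all counts, without TMM factors, DNAJ genes made up 0.257, 0.276 and 0.294% in AIH. In the controls that share was 0.208, 0.245 and 0.203%. The part of each step in the ratio was not tested. CCT sums overlapped, at 504, 790 and 561 TPM in AIH and 694, 607 and 744 TPM in the controls. The ratio of means was 0.907 on TPM and 1.04 on CPM with TMM factors, so the direction depended on the scale. As a plain share of all counts, CCT genes made up 0.119, 0.166 and 0.126% in AIH and 0.154, 0.133 and 0.159% in the controls. On that scale AIH 1 and AIH 3 lay below every control and AIH 2 above them.

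**Figure D2:**
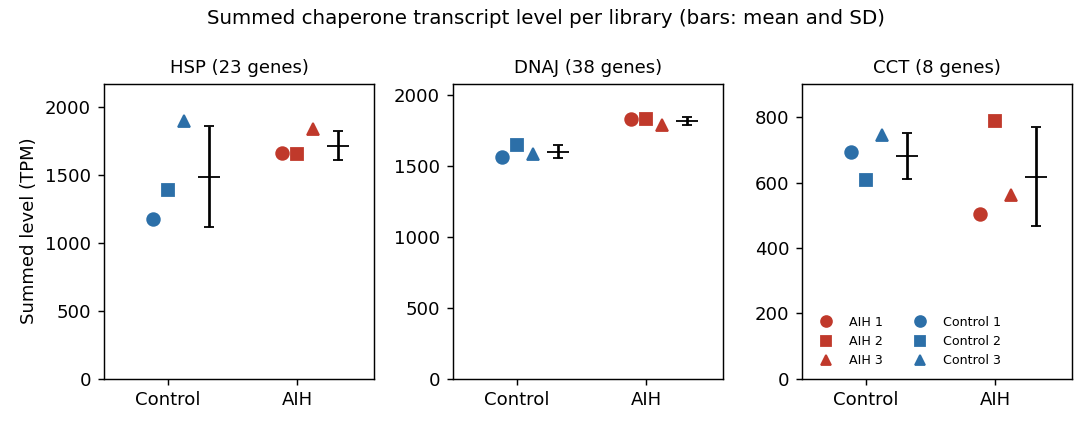
Summed level of the HSP, DNAJ and CCT members in TPM (y axis, from 0) in each control and AIH library (points), with the mean and SD of each group beside them. The 3 AIH points of the DNAJ panel, between 1790 and 1836 TPM, sit above the 3 control points, while the HSP and CCT panels overlap.

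Gene by gene, 59 of the 69 members passed the filter on low counts (18 HSP, 34 DNAJ and 7 CCT). None of them passed an adjusted p of 0.05 in edgeR's quasi-likelihood test, against 0.0808% of the 11140 genes tested in the direction higher in AIH (9 genes) and 0.00898% in the direction lower in AIH (1 gene). At an unadjusted p under 0.05, 6 members were higher and 1 was lower in AIH, where the background over all genes tested was 4.42% higher and 3.85% lower. DESeq2 and limma-voom also called no member, with 8 and 12 members at an unadjusted p under 0.05. The count of 7 was 2 without AIH 3 and 3 with the macrophage level as a covariate. Shares over all genes are not given for these other fits, and the background above belongs to the main fit only. Their counts therefore cannot be read as above or below a background. Log2 fold changes (AIH minus control) were positive for 40 of the 59 members (67.8%), against 48.1% of all genes tested. Their median was 0.40, and that of all genes tested was -0.04. Errors of log2 fold changes below are approximate standard errors (SE).

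In HSP genes 13 of 18 log2 fold changes were positive, with a median of 0.40, which was 0.17 without AIH 1 and 0.16 without Control 1. In DNAJ genes 23 of 34 were positive, with a median of 0.51, which was 0.22 without Control 3. Of the 7 CCT genes 4 were positive, with a median of 0.25 that turned to -0.077 without AIH 2. Every AIH library lay above every control for 13 members (22.0% of those tested, against a background of 8.46%), of which 11 were DNAJ genes, 1 an HSP gene and 1 a CCT gene. The opposite order, every AIH library below every control, was seen for 1 member (1.69%, against 8.87%). On the side higher in AIH these counts were above the background, a difference that was not tested.

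**Figure D3:**
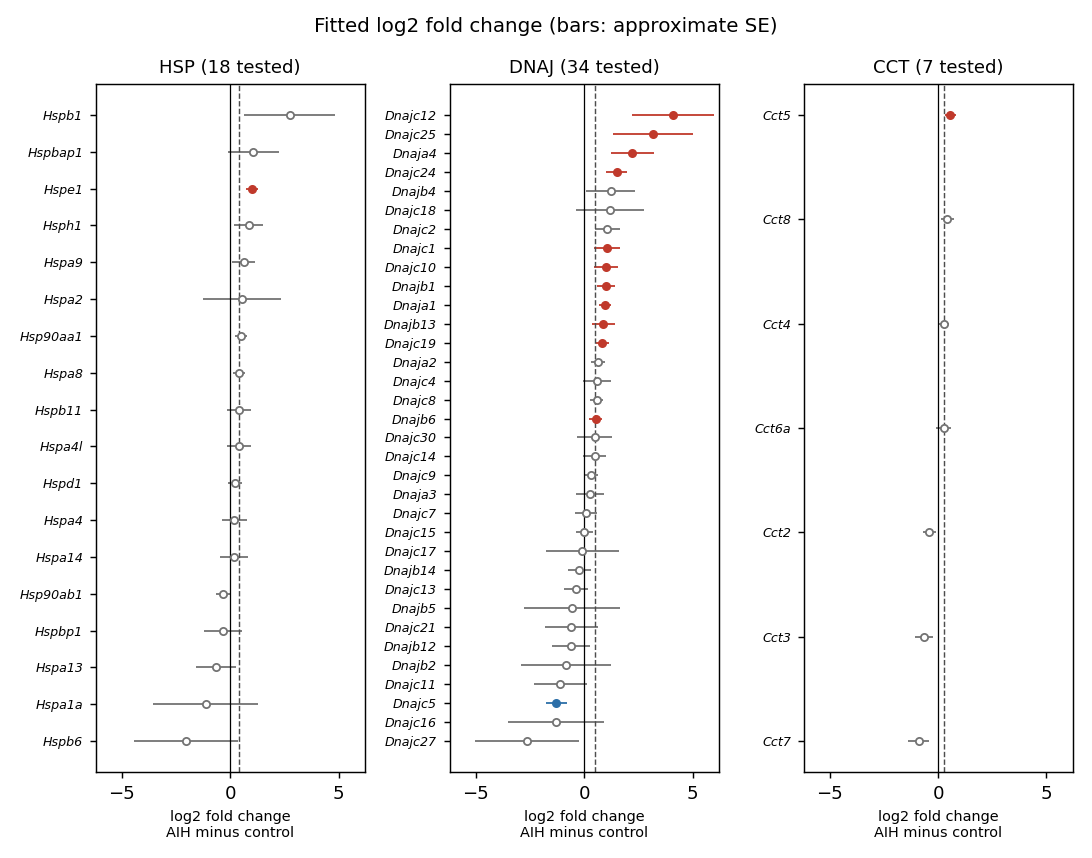
Log2 fold change (x axis, AIH minus control) of each member tested, by family, with an approximate standard error as the bar. Red points are the 13 members with every AIH library above every control, the blue point is Dnajc5, with every AIH library below, and the dashed line is the family's median (0.40, 0.51 and 0.25).

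Among the J-domain proteins, the DNAJA class, which is closest in layout to bacterial DnaJ, had 4 of 4 positive log2 fold changes with a median of 0.80. Dnaja1, a farnesylated co-chaperone of cytosolic HSP70, measured 428, 620.5 and 734 CPM in AIH 1, 2 and 3 and 314, 304 and 295 CPM in Control 1, 2 and 3. All AIH libraries lay above the controls, which varied by little (304 ± 9.34 CPM against 594 ± 155, SD, n = 3 each). Its log2 fold change was 0.97 ± 0.27 (SE), with an adjusted p of 0.408 that ranged from 0.0692 to 0.928 over the alternatives, and the change stayed between 0.77 and 1.29 in them. Dnaja1 and 5 other members (Dnajc19, Hspa9, Hspd1, Hspe1 and Cct3) have pseudogenes named after them in the GENCODE annotation. Reads shared with those copies make the levels of these members uncertain.

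Dnaja2, a cytosolic relative, overlapped between the groups, at 165, 172 and 289 CPM in AIH and 107, 172 and 124 CPM in the controls (log2 fold change 0.64 ± 0.34, adjusted p = 0.687, and 0.31 without AIH 3). Dnaja3, the mitochondrial member, had 14.0, 31.7 and 59.5 CPM in AIH and 22.4, 38.1 and 26.7 CPM in the controls, and its log2 fold change of 0.27 turned to -0.36 without AIH 3. Dnaja4, at a mean of 6.50 TPM over all libraries, measured 72.6, 15.4 and 25.9 CPM in AIH and 10.1, 12.9 and 1.34 CPM in the controls. These groups did not overlap, and the log2 fold change of 2.23 ± 0.98 (adjusted p = 0.601) was 1.35 without AIH 1 and 0.07 with the macrophage level as a covariate.

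In the DNAJB class 4 of 8 log2 fold changes were positive. Dnajb1, the HSP40 of the heat shock response, measured 59.8, 126 and 91.0 CPM in AIH and 54.3, 50.8 and 33.9 CPM in the controls, so the groups were apart by a narrow gap. Its log2 fold change was 0.99 ± 0.42 (adjusted p = 0.588) and 1.16 with the macrophage covariate. Over the alternatives it ranged from 0.70 without AIH 2 to 1.23 without AIH 1. Dnajb6, which keeps aggregation-prone proteins soluble, had 261, 206 and 187 CPM in AIH and 167, 124 and 162 CPM in the controls, again without overlap (log2 fold change 0.53 ± 0.29, adjusted p = 0.695). Dnajb13, known from the axoneme of sperm, was the third member of this class without overlap, at 46.6 ± 14.4 CPM in AIH and 25.2 ± 8.82 CPM among controls (SD, n = 3 each). Dnajb12, a membrane protein of the endoplasmic reticulum, had 8.11, 11.5 and 12.6 CPM in AIH and 16.9, 7.75 and 24.7 CPM in the controls, and the sign of its log2 fold change (-0.62 ± 0.89) turned with the covariate.

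The DNAJC class joins proteins that share little beyond the J domain, and 15 of its 22 tested members had positive log2 fold changes. Dnajc24, needed to make diphthamide on elongation factor 2, measured 53.9, 50.1 and 68.7 CPM in AIH and 17.6, 17.0 and 26.4 CPM in the controls. The lowest AIH value was above the highest control by a wide gap, and the log2 fold change was 1.5 ± 0.49 (adjusted p = 0.473) and between 1.31 and 1.91 in the alternatives. Dnajc19, part of the motor that pulls proteins into mitochondria, measured 199, 154 and 257 CPM in AIH and 119, 107 and 114 CPM in the controls. Its groups did not overlap either (log2 fold change 0.85 ± 0.30, adjusted p = 0.502).

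Dnajc12, a co-chaperone of the aromatic amino acid hydroxylases, had 635, 975 and 1374 counts in AIH and 209, 0 and 0 counts in the controls. It was detected in every AIH library and in Control 1 only (log2 fold change 4.10 ± 1.88, adjusted p = 0.623). Without Control 1 every control is at 0 and no fold is given, and the adjusted p was then 0.0745. That setting leaves out the only control with reads of this gene. The adjusted p was 0.636 with library totals, 0.673 without AIH 1 and 0.999 with the macrophage covariate. Dnajc25 was near 0 in the controls too, at 0, 4.85 and 0.306 CPM, against 24.6, 7.31 and 15.2 CPM in AIH. Dnajc1 and Dnajc10, of the membrane and the lumen of the endoplasmic reticulum, were at 45.2 ± 5.63 and 58.4 ± 5.63 CPM in AIH and 21.6 ± 10.5 and 29.2 ± 18.5 CPM among controls (SD, n = 3 each), both without overlap and with adjusted p of 0.705 and 0.706. Their log2 fold changes of 1.06 and 1.0 were 0.53 and 0.32 with the macrophage covariate, and that of Dnajc10 was 0.66 without Control 3. Dnajb13, Dnajc1, Dnajc10, Dnajc12 and Dnajc25 are named here because their groups did not overlap, and were chosen after their values were seen.

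Dnajc5, the cysteine string protein of exocytosis, was the 1 member with every AIH library below the controls, at 79.6, 21.3 and 44.1 CPM against 91.5, 136 and 124 CPM. AIH 1 came close to Control 1, and the log2 fold change was -1.28 ± 0.49 (adjusted p = 0.535), -1.84 without AIH 1, -0.93 without AIH 2 and -2.09 with the macrophage covariate. The other members of the class with the smallest p in this direction all overlapped between the groups. Dnajc27, which joins a J domain to a small GTPase, rested on Control 3 with 21.0 CPM, the other libraries being at 0 to 2.83 CPM, and its log2 fold change of -2.65 was 0.16 without it. Dnajc11, of the mitochondrial membranes, was at 4.93 ± 2.64 CPM in AIH and 10.7 ± 6.53 CPM in the controls, and Dnajc13, of endosomes, at 29.2 ± 11.4 and 38.2 ± 8.08 CPM (SD, n = 3 each). Dnajc7, which binds both HSP70 and HSP90, was at 60.8 ± 32.2 and 57.2 ± 15.4 CPM (SD, n = 3 each), with a log2 fold change of 0.09 whose sign depended on the setting.

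Dnajc15 made up 45.7, 23.6 and 20.9% of the summed DNAJ level in TPM in AIH 1, 2 and 3, and 42.9, 39.7 and 40.9% in Control 1, 2 and 3. Its level was 839, 433 and 374 TPM in AIH and 672, 656 and 648 TPM in the controls, so AIH 1 lay above the controls and the other AIH libraries below them. The fitted log2 fold change was 0.01 ± 0.38 and went to -0.56 without AIH 1. The remaining DNAJ genes, weighted by TPM, therefore made up a larger part of the sum in AIH 2 and AIH 3 than in any other library.

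Among the mitochondrial folding machines, Hspe1, the HSP10 lid of the matrix chamber, had the smallest p of all members. It measured 334, 239.6 and 323 CPM in AIH 1, 2 and 3 and 153, 151 and 143 CPM in Control 1, 2 and 3. The groups were well apart, with means of 299 ± 51.5 and 149 ± 5.26 CPM (SD, n = 3 each). Its log2 fold change was 1.0 ± 0.27, with an unadjusted p of 0.00400 and an adjusted p of 0.378, which ranged from 0.0690 with DESeq2 to 0.999. The change lay between 0.81 and 1.14 in every alternative, including 0.84 with the macrophage covariate. Hspe1 has 6 named pseudogenes and Hspd1 has 5, so reads shared with these copies make both levels uncertain.

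Hspd1, the HSP60 barrel that Hspe1 closes, did not show this separation. It had 91.5, 156 and 119.6 CPM in AIH and 94.2, 129 and 92.7 CPM in the controls, overlapping, with a log2 fold change of 0.22 ± 0.33 (adjusted p = 0.930) that was 0.00056 without AIH 2 and 0.040 with library totals. The ratio of Hspe1 to Hspd1 in TPM was 13.5, 5.76 and 9.98 in AIH and 6.13, 4.33 and 5.79 in the controls, and AIH 2 lay within the control range. Hspa9, the mitochondrial HSP70, had 150.3, 37.8 and 67.1 CPM in AIH and 49.7, 66.2 and 51.0 CPM in the controls. AIH 1 alone was far above the others, and the log2 fold change of 0.61 was -0.079 without it. The list of mitochondrial members held these 3 and Dnaja3, Dnajc15, Dnajc19 and Dnajc30, but not Dnajc11, whose log2 fold change was -1.11 ± 1.22. The 7 values ran from 0.01 to 1.0, with a median of 0.48, and several were near 0 or changed sign. Dnajc15, at 0.01, was -0.19 with library totals, -0.13 with the replicate block and -0.94 with the macrophage covariate, with which Dnajc30 was -0.15. Of these 7, the groups did not overlap for Hspe1 and Dnajc19.

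In the cytosolic HSP70 system, Hspa8 measured 1367, 1263 and 1548 CPM in AIH and 877, 862 and 1421 CPM in the controls. Control 3 lay within the AIH range, and the log2 fold change of 0.40 ± 0.27 (adjusted p = 0.764) was 0.68 without it. Hspa1a was at 0.0533, 0 and 5.07 CPM in AIH and 2.82, 0 and 8.49 CPM in the controls, and its sign turned without Control 3. Hspa1b did not pass the filter, with 425 counts in Control 3 and at most 22.0 in any other library. The 3 HSP110 genes, which exchange nucleotide on HSP70, had overlapping groups. Hspa4l had a log2 fold change of 0.39 ± 0.55, which was -0.29 without AIH 3. Hsph1 measured 89.0, 60.3 and 142 CPM in AIH and 53.2, 10.9 and 98.3 CPM in the controls (log2 fold change 0.85 ± 0.69, adjusted p = 0.824), a value that ranged from 0.36 without Control 2 to 1.6 without Control 3 and was 2.27 with the macrophage covariate. Hspa4 had 54.2, 52.3 and 24.1 CPM against 58.1, 37.5 and 18.5 CPM, and its log2 fold change of 0.19 was -0.13 without Control 3. Hspbp1, another exchange factor, was at 12.8 ± 6.36 and 16.3 ± 7.97 CPM, and Hspa13, an HSP70 of the endoplasmic reticulum, at 12.3 ± 8.65 and 19.6 ± 10.8 CPM in AIH and controls (SD, n = 3 each).

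The HSP90 genes had log2 fold changes of opposite sign, neither past the threshold. Hsp90aa1, the stress-responsive form, measured 1327, 781 and 1125 CPM in AIH and 641, 830.3 and 801 CPM in the controls, so AIH 2 lay within the control range (log2 fold change 0.51 ± 0.27, adjusted p = 0.687, and 0.33 without AIH 1). Hsp90ab1, the constitutive form, had 315, 453 and 423 CPM in AIH and 387, 367 and 739 CPM in the controls. Its log2 fold change of -0.33 ± 0.33 rested on Control 3 and was 0.078 without it. The ratio of Hsp90aa1 to Hsp90ab1 in TPM was 3.67, 1.5 and 2.32 in AIH and 1.44, 1.97 and 0.944 in the controls. The small heat shock proteins, which hold unfolded proteins without ATP, had few reads. Hspb1 had 5.33, 4.90 and 24.8 CPM in AIH and 5.16, 0 and 0.0382 CPM in the controls, and Hspb6 had 0, 5.90 and 0.292 CPM against 5.72, 19.7 and 0 CPM.

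**Figure D4:**
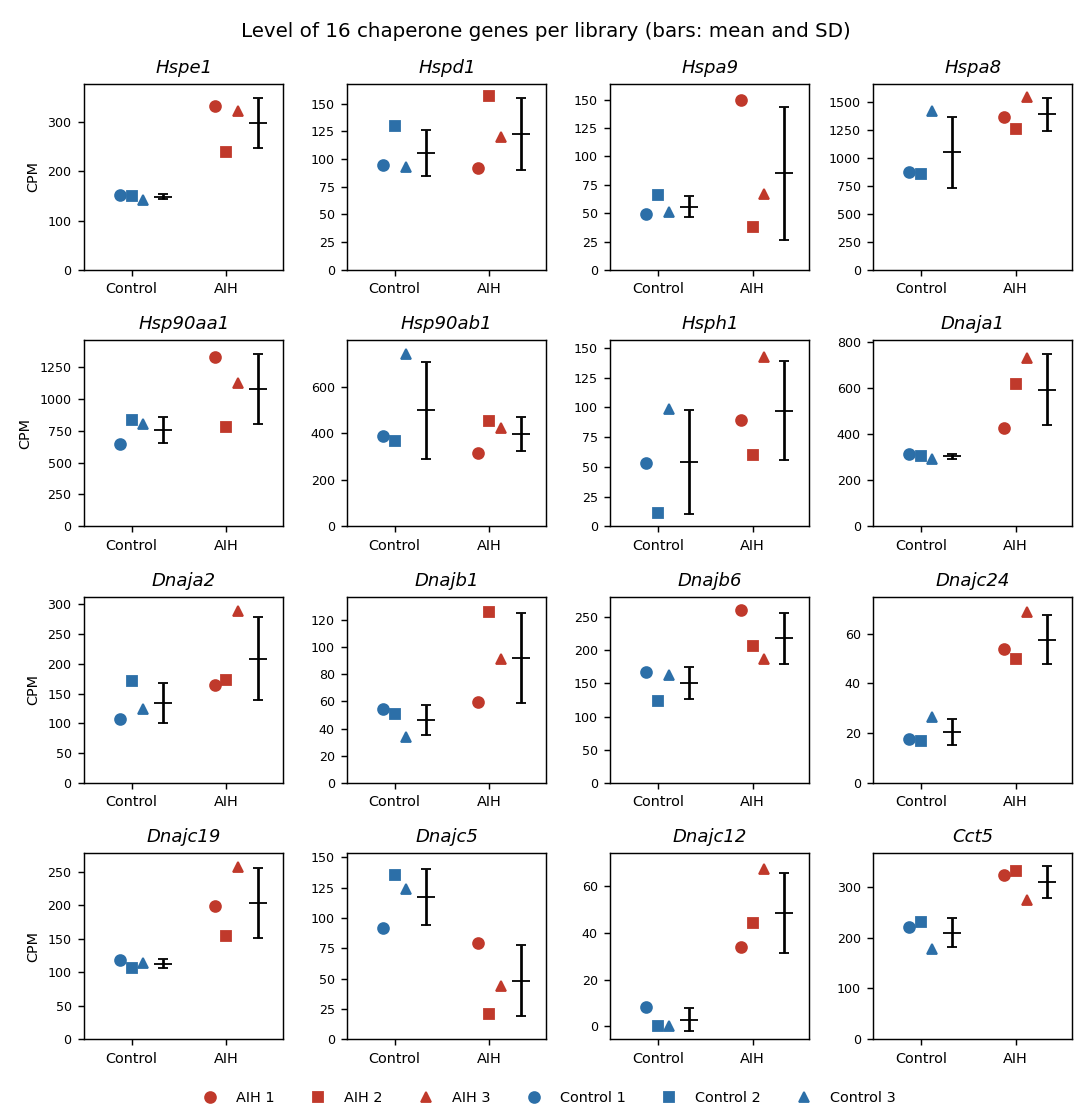
Level in CPM (y axis) of 16 members in each control and AIH library (points), with the group mean and SD beside them. Hspe1, Dnaja1, Dnajb1, Dnajb6, Dnajc24, Dnajc19, Dnajc12 and Cct5 have all AIH points above all control points, Dnajc5 has them below, and the others overlap.

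Of the CCT subunits, which stack as rings of different subunits, Cct5 was the 1 gene without overlap. It measured 323, 332 and 274 CPM in AIH and 221, 231 and 177 CPM in the controls (log2 fold change 0.56 ± 0.26, adjusted p = 0.623). Cct8 was at 346 ± 46.9 CPM in AIH and 257 ± 76.0 in the controls, Cct4 at 245 ± 14.3 and 206 ± 41.2, and Cct6a at 175 ± 62.5 and 147 ± 14.9 CPM (SD, n = 3 each). The other subunits were on the opposite side. Cct2 had 191 ± 31.5 CPM in AIH and 253 ± 55.3 in the controls, Cct3 had 79.3 ± 31.4 and 125 ± 37.8, and Cct7 had 108 ± 66.8 and 202 ± 95.9 CPM (SD, n = 3 each). Cct7 had a log2 fold change of -0.90, which was -1.51 without AIH 2, -0.45 without Control 3 and 0.36 once the macrophage level was a covariate. Tcp1, which encodes subunit 1 of the ring and is no member by its symbol, had 201, 242 and 198 CPM in AIH and 159, 164 and 116 CPM in the controls (log2 fold change 0.55 ± 0.28, adjusted p = 0.677).

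The 10 members below the filter were Cct8l1, Dnajb3, Dnajc6, Dnajc22, Dnajc28, Hspa12a, Hspa1b, Hspb8, Hspb9 and Hspg2. Most of their counts sat in 1 or 2 libraries. Hspb8 had 182 counts in Control 1 and at most 15 in any other library, Hspb9 had 79 counts in Control 2 and 0 elsewhere, and Dnajb3 had 164 counts in AIH 3, 109 in Control 2 and 0 elsewhere. The tested members not named above overlapped between the groups.

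Partner genes outside the family were read from the same fit, and none passed an adjusted p of 0.05. In the list around heat shock factor 1, 4 of 8 log2 fold changes were positive, with 3 genes higher (37.5%, against 4.42% of all genes tested) and 1 lower (12.5%, against 3.85%) at an unadjusted p under 0.05. Hsf1 itself overlapped, at 9.91 ± 7.06 CPM in AIH and 22.0 ± 17.9 CPM among controls (SD, n = 3 each), while Hsf2, a related factor, had 53.5, 73.3 and 66.2 CPM in AIH and 23.0, 38.5 and 11.1 CPM in the controls (log2 fold change 1.41 ± 0.55, adjusted p = 0.535). Hsbp1, a small protein that binds heat shock factor 1, had 493, 388 and 364 CPM in AIH and 289, 270.3 and 271 CPM in the controls, without overlap. Ubb, a ubiquitin gene, had an adjusted p of 0.595. Sqstm1, the autophagy receptor p62, had 34.7, 20.2 and 37.1 CPM in AIH and 54.8, 60.3 and 102 CPM in the controls, without overlap and lower in AIH (adjusted p = 0.535).

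Among 17 HSP90 co-chaperones, 9 were positive, and 2 (11.8%, against 4.42% of all genes tested) were higher at an unadjusted p under 0.05. Ptges3, the co-chaperone p23, had 933, 493 and 1117 CPM in AIH and 301, 412 and 414 CPM in the controls (log2 fold change 1.17 ± 0.33, adjusted p = 0.413), and Ppid, an immunophilin, had 126 ± 32.6 and 64.3 ± 23.5 CPM (SD, n = 3 each, adjusted p = 0.560), both without overlap. Fkbp5, another immunophilin, lay on the other side, at 14.8, 10.6 and 3.99 CPM in AIH and 23.0, 32 and 37.9 CPM in the controls (log2 fold change -1.66 ± 0.77, adjusted p = 0.628). Of 7 HSP70 co-chaperones found, 5 were positive and none had an unadjusted p under 0.05. Of 10 genes of CCT subunit 1 and its partners, 9 were positive, and Pfdn4, a prefoldin subunit, was higher at an unadjusted p under 0.05 with overlapping groups.

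Of 8 other mitochondrial quality control genes, 2 were positive. Clpx, the unfoldase of the matrix protease, had 2.72, 7.99 and 10.9 CPM in AIH and 46.0, 47.1 and 49.7 CPM in the controls. The groups were far apart, with a log2 fold change of -2.73 ± 0.70, an unadjusted p of 0.00347 and an adjusted p of 0.355, so it lay opposite to Hspe1 and Dnajc19 of the same compartment. The 5 endoplasmic reticulum chaperones left out by the rule had overlapping groups. Hspa5 was at 332 ± 108 CPM in AIH and 263 ± 73.5 in the controls, and Hsp90b1 at 407 ± 73.1 and 337 ± 45.2 CPM (SD, n = 3 each).

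At the level of transcripts, 34 members had more than 1 in the table, and 83 of the 131 member transcripts passed the filter. None passed an adjusted p of 0.05, as for all 17999 transcripts tested (0%), and at an unadjusted p under 0.05 there were 4 higher and 1 lower, against backgrounds of 2.14% and 2.01%. Dnajc24 and Hspe1 had 1 transcript with all of the level in the table, and NM_008298.6 held at least 80.2% of the Dnaja1 level in every library. For Hspa8 the transcript NM_001364480.1 made up 23.2, 0 and 0% of the level in AIH and 2.44, 9.79 and 82.8% in the controls, so Control 3 stood apart here. Dnajc5 was assigned to NM_016775.3 at 97.2, 0 and 0% in AIH and 96.6, 91.7 and 0% in the controls, with XM_011239923.3 taking all of it in AIH 2, AIH 3 and Control 3. Shares thus went from near none to all between libraries of 1 group, and the error of assigning reads to transcripts was not modelled.

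**Figure D5:**
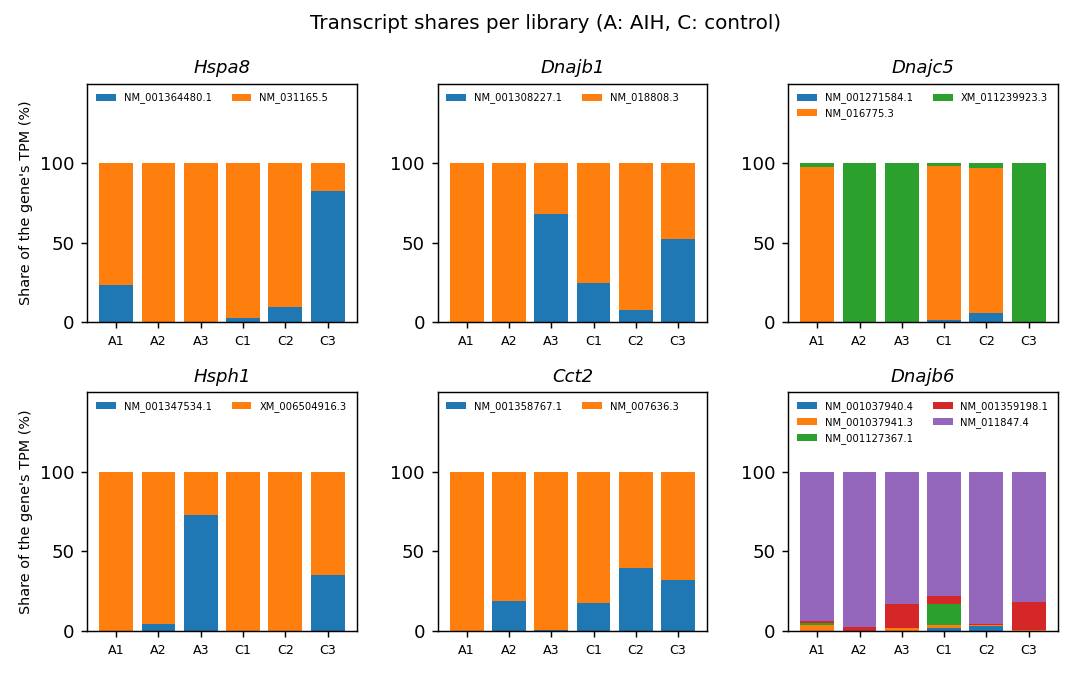
Share of each transcript in the summed TPM of its gene (y axis, percent) for 6 members in AIH 1 to 3 (A1 to A3) and Control 1 to 3 (C1 to C3), with 1 colour per RefSeq transcript. Within both groups the leading transcript changes between libraries for Dnajc5 and Dnajb1. For Hsph1 it changes in AIH 3 and for Hspa8 in Control 3, while Cct2 and Dnajb6 keep the same one in every library.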

How the data were processed

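RNA was measured in 3 AIH and 3 control libraries, grouped by their titles (1 control title is misspelled). The authors gave a table of genes and one of transcripts. Per the file headers these hold read counts, which are expected counts: 14.8 to 16.7% of the values in a library were not whole, so reads had been split between features. The TPM values deposited by the authors are corrected for transcript length. Left unused were 12 other columns of per-sample values and 8 of group averages in each table. Per the submitters' processing notes, the tools were FastQC, STAR and featureCounts and the build was GRCm39 (mm39), with no versions or roles. How reads matching several genes were handled is not given.

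Rounded expected counts of all genes were fitted with edgeR 4.0.16 (R 4.3.3), using TMM factors, the filter filterByExpr with a minimum count of 10 and a total of 15, and the quasi-likelihood test for the group, with no other term. P-values were adjusted by Benjamini-Hochberg over the 11140 genes tested, with a threshold of 0.05. The biological coefficient of variation came to 0.948, on 4 residual plus 5.45 prior degrees of freedom. SE is approximate and equals the size of the log2 fold change divided by the root of its F statistic. CPM use TMM library sizes. Levels are set side by side between genes in TPM, and counts and CPM serve to compare libraries within a gene. Lists were counted and not tested, and an exact permutation test of 3 against 3 libraries, which cannot go below 0.1, was not used. The fit was also run on simulated counts, but with less spread between libraries and larger changes than most members had here. That run therefore does not show how well the fit finds changes of the size reported.

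The members, lists and alternatives were chosen with earlier results of these data known. Named by role were Hsp90aa1, Hsp90ab1, Hspa8, Hspa1a, Hspa1b, Hspa4, Hsph1, Hspd1, Hspe1, Hspa9, Hspb1, Dnaja1, Dnaja2, Dnaja3, Dnajb1, Dnajb6, Dnajc7 and Cct2 to Cct8, and then the 5 HSP and 5 DNAJ genes per direction with the smallest p. Other named genes were chosen after their values were seen. The 15 alternatives changed the scaling (DESeq2's size factors, or library totals), the filter (none, or 10 CPM in 3 libraries), the tool (DESeq2 1.42.0, or limma-voom with limma 3.58.1), the design (a block for the replicate number, or a covariate, the macrophage markers' mean log2 CPM) and the libraries (each left out, or AIH 1 and Control 3 together). The macrophage mean was lower in every AIH library than in each control, and so as a covariate can take up part of any group difference. Entrez IDs of all 69 members matched a RefSeq table of GRCm38.p6, the source of the promoters. Protein sequences were not analysed here.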

Additional observations from a re-analysis of the deposited data

How the results depend on the processing

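No member passed the adjusted threshold in any of the 15 alternatives. Over all genes the count of calls was 10 as reported, 3 with library totals, 32 without a filter, 0 with the macrophage covariate, 0 to 1 with a library left out, 1 without AIH 1 and Control 3, 180 with DESeq2 and 21 with limma-voom. Deviations from the group mean correlated at r = 0.0132, 0.00134 and 0.191 between same-numbered libraries. The last value, of AIH 3 and Control 3, was the highest of all pairs, while AIH 1 correlated best with Control 2 (0.108). With 3 libraries per group, such values cannot settle whether the numbers pair the libraries. With the replicate block the count of calls was 0. Library totals moved the median log2 fold change of all genes tested from -0.04 to -0.23. That of HSP genes was then 0.18 and of DNAJ genes 0.32, which is 0.41 and 0.55 above all genes. Without a filter the medians were 0.19 for HSP and -0.083 for CCT genes. With a library left out they ranged from 0.16 to 0.40 for HSP, 0.22 to 0.56 for DNAJ and -0.077 to 0.32 for CCT genes. The ratio of summed levels was 1.43 for DNAJ genes on CPM, and ranged from 1.04 to 1.34 for HSP genes with a library left out.

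Log2 fold changes that turned sign were not past the threshold before or after, and the cause was not tested. Dnajc7 went to -0.064 with library totals and -0.0074 with the block. The macrophage covariate took Hsp90ab1 to 0.46, Hspa1a to 3.80, Hspa4 to -0.64, Hspa9 to -0.52, Cct7 to 0.36 and Dnajb12 to 0.42. With a library left out the range was -0.38 to 0.41 for Dnajc7, -0.079 to 0.96 for Hspa9, -0.077 to 0.43 for Cct6a, -0.36 to 0.65 for Dnaja3, -0.77 to 0.12 for Hspbp1, -0.51 to 0.078 for Hsp90ab1, -6.92 to 0.28 for Hspa1a, -0.13 to 0.64 for Hspa4 and -4.12 to 0.16 for Dnajc27. Without AIH 1 and Control 3 Hsp90ab1 went to 0.22, Hspa1a to 0.86, Hspa4 to -0.32 and Hspa9 to -0.14. The settings on log2 TPM were planned only for tables without counts and were not run, nor were features of the proteins.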

Other observations

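Hspbap1, which binds the small heat shock protein HSPB1, has 4 transcripts in the table, and was chosen after its values were seen. NM_175111.3 was at 0.620, 4.63 and 0.250 TPM in AIH 1, 2 and 3 and listed at 0 in all controls (unadjusted p = 0.0120). XM_017317116.1 was listed at 0 in all AIH libraries and at 0.510, 2.89 and 6.41 TPM in Control 1, 2 and 3 (unadjusted p = 0.0108). Both had an adjusted p of 0.755 in edgeR's quasi-likelihood test over all transcripts. The first of them held 4.08% of the gene's level in AIH 3, where XM_006522470.4 held 62.0%, a transcript that was also seen in Control 1 (13.6%) and Control 2 (3.67%). The gene as a whole was low, at 15.3 ± 10.1 CPM in AIH and 7.29 ± 6.05 CPM in control libraries (SD, n = 3 each), with overlapping groups.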
